A study of Homo sapiens with 48 samples.

Results

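Neural ectoderm and mesoderm made from one human embryonic stem cell line were compared with a targeted RNA assay. The ectoderm libraries were set against the mesoderm libraries by their labels alone, 8 of the 48 libraries of the series with 4 in each group, and all probes of a gene were summed, which gave 452 genes from 1113 probes. WA09, widely known as H9, is an established human embryonic stem cell (hESC) line and was the only line used. Neural ectoderm was induced over 6 days with 2 µM A83-01 plus 100 nM LDN-193189, in Essential 6 (E6) Medium, which contains no growth factor of the TGF-beta family. Mesoderm cultures were kept for 5 days in STEMdiff Mesoderm Induction Medium, a commercial kit whose components the labels do not list. Untreated hESC and an endoderm group, made over 5 days with the STEMdiff Definitive Endoderm Kit, had 4 libraries each and are used here as reference levels. Their libraries also entered the read filter, the scaling and the estimate of the spread. The embryoid bodies of the series were not compared here. Medium, kit and length of culture differ between ectoderm and mesoderm, so their parts in any difference cannot be told apart. The labels do not say that the 4 libraries of a group came from separate cultures, so the p-values measure only the spread between these libraries, which may be technical.

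LDN-193189 blocks type I receptors of bone morphogenetic proteins (BMPs), and A83-01 blocks the type I receptors for TGF-beta, activin and Nodal; blocking both arms of SMAD signalling is a standard route from pluripotent cells to PAX6-expressing neural ectoderm. Primitive streak and early mesoderm form instead under Wnt, BMP and Nodal signals and are known for the T-box factor TBXT (brachyury), with CDX2 in its posterior part and HAND1, FOXF1 and MSX1 in its lateral and extraembryonic derivatives. In RASL-Seq, pairs of DNA probes anneal side by side on captured RNA, are ligated, amplified and counted. Such counts do not allow the levels of different genes to be ranked, since each probe has its own efficiency.

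The ectoderm libraries held 2283016 to 3334662 reads and the mesoderm libraries 2358531 to 3482191, the lowest total being replicate 3 in both groups. The 10 highest genes took 62.2% to 64.0% of the reads in ectoderm and 52.4% to 53.9% in mesoderm. All pairs of libraries within a group differed by more than counting noise, with a chi-square per degree of freedom of 7.02 to 120, so no library was counted as a second deposit of another; whether libraries are repeat wells of one culture cannot be read from this. Replicate 4 of ectoderm and replicate 3 of mesoderm stood apart from the rest of their groups: their root mean square log2 differences from the other 3 libraries were 0.544 and 0.501, against 0.323 to 0.386 for the other 6 libraries. Where leaving out one of these libraries ended or made the call of a gene described below, its value without that library is given beside it. Levels are CPM, read counts brought to a common library size, after TMM scaling, a correction for the few genes that take up most reads.

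Most of the panel differed between the lineages. The read filter ran over the 16 control libraries, so some of the 387 tested genes had few or no reads in the 8 libraries compared. Of these 387 genes, 339 were called at an adjusted p under 0.05 in edgeR's quasi-likelihood test (87.6% called), 172 of them higher in ectoderm (44.4%) and 167 higher in mesoderm (43.2%). Filtering and fitting the 8 libraries alone left 361 genes, of which 319 were called. A call together with a difference of at least 2-fold was found for 234 genes (60.5%), 132 in the ectoderm direction (34.1%) and 102 in the mesoderm direction (26.4%). The median size of a called difference was 1.59 on the log2 scale, and 52 genes were at least 16-fold higher in ectoderm against 23 in mesoderm, or 21 when genes without a single read in ectoderm were set to the smallest fold that 3 reads per library allow. In 309 tested genes (79.8%) no library of one group overlapped the other group. The panel was built around lineage markers, so these shares describe the panel and not the transcriptome. Scaling the libraries to the reference genes ACTB, GAPDH and PGK1 in place of TMM gave 313 calls with 199 higher in ectoderm and 114 higher in mesoderm, which moved the share of calls higher in ectoderm from 50.7% to 63.6%.

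**Figure D1:**
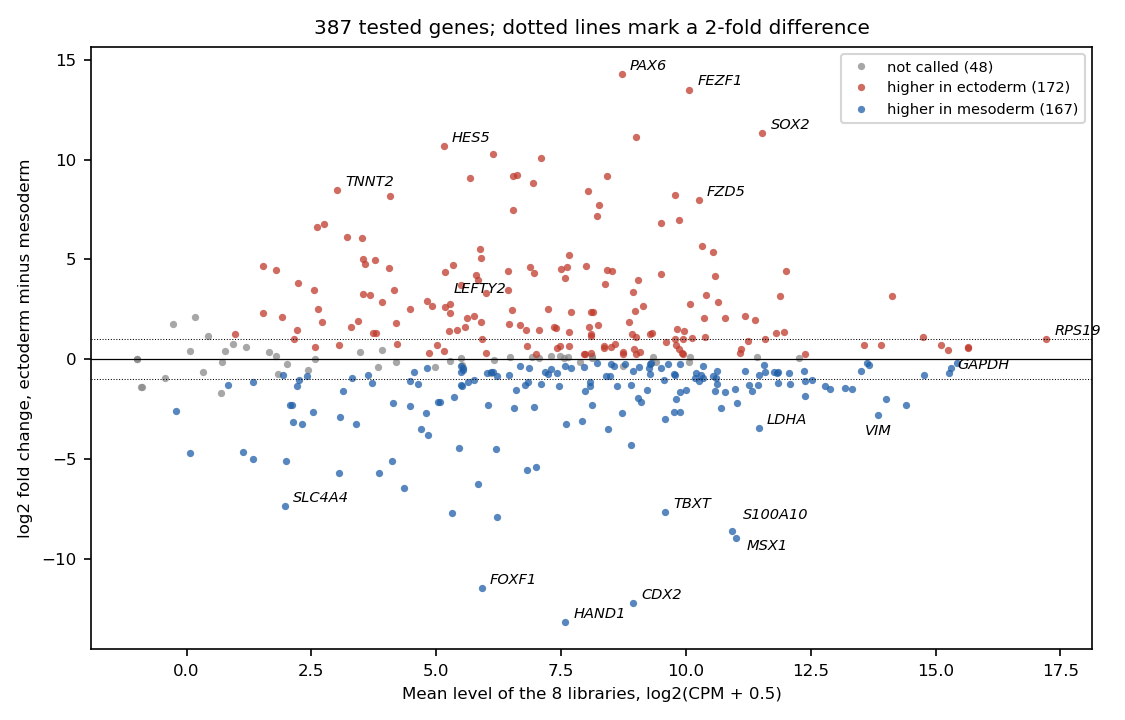
Each point is one of the 387 tested genes, with its mean level over the 8 libraries on the x axis as log2(CPM + 0.5) and the log2 fold change of ectoderm minus mesoderm on the y axis; red, blue and grey mark genes called higher in ectoderm, called higher in mesoderm and not called. Called genes are found at all levels and PAX6 and HAND1 lie at the extremes, where the fitted values depend on the prior count because the lower group had no reads.

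The strongest differences toward ectoderm were in neural transcription factors that were at or near zero reads in mesoderm. PAX6, the paired-box factor that defines early neural and eye field ectoderm (chromosome 11, 31789026 to 31817961, GRCh38), was at 825, 844, 752 and 929 CPM in the 4 ectoderm libraries and had no read in any mesoderm library. Against 3 reads per library this is at least 966-fold higher in ectoderm (adjusted p = 9.22e-19, edgeR). FEZF1, a zinc finger factor of the forebrain, was at 2081, 2076, 2238 and 2174 CPM in ectoderm, while the 4 mesoderm libraries held 2 reads in all; the ratio was 15195, with an exact 95% interval for counting error alone of 4206 to 125474. The ectoderm libraries of both genes sat close together and far from every mesoderm library.

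SOX2, a factor of both pluripotent and neural cells, moved in opposite directions from its hESC level. It stood at 6275, 5763, 5861 and 5780 CPM in ectoderm and at 1.15, 3.03, 2.60 and 2.21 CPM in mesoderm, a log2 difference of 11.33 ± 0.22 (SE; adjusted p = 1.04e-19). Untreated hESC had 993 ± 35.8 CPM (SD, n = 4), and the same fit called SOX2 higher than hESC in ectoderm, by 2.58 ± 0.13 on the log2 scale (adjusted p = 2.53e-13), and lower than hESC in mesoderm (-8.76 ± 0.21, adjusted p = 4.48e-18). The neural progenitor factor SOX1 was at 180 to 195 CPM in ectoderm and at most 0.862 CPM in mesoderm (log2 difference 9.16 ± 0.29, and 10.37 without mesoderm replicate 1). In bulk lysates, fewer cells of a type and less RNA per cell cannot be told apart, here and in every comparison that follows.

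The other leading ectoderm genes were regional regulators, epithelial genes and cytoskeletal genes. SIX3 (forebrain and eye field) was at 256 to 292 CPM in ectoderm with 3 mesoderm reads in all, LMX1A (roof plate) at 119 to 158 CPM with 1 mesoderm read, and EMX2 (dorsal forebrain) at 88.5 to 107 CPM with 2 mesoderm reads. The mesoderm reads of LMX1A and EMX2 all came from replicate 3, so that without it mesoderm had none. CAPN6, a calpain without protease activity that binds microtubules, was at 965 to 1088 CPM against 0 to 0.757 CPM, and MAP2, a neuronal microtubule protein, at 658 to 702 CPM against 0.575 to 1.47 CPM. GRHL3, a factor of surface ectoderm, at 139 to 225 CPM, and the endocytic receptor LRP2, at 214 to 263 CPM, also belonged to the 12 largest, with at most 0.757 CPM in any mesoderm library. HES5, a Notch target of neural progenitors, had no mesoderm read and was uneven in ectoderm at 57.7, 43.6, 138 and 40.3 CPM, with replicate 3 well above the others (at least 80.6-fold higher in ectoderm; adjusted p = 0.00338, edgeR).

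**Figure D2:**
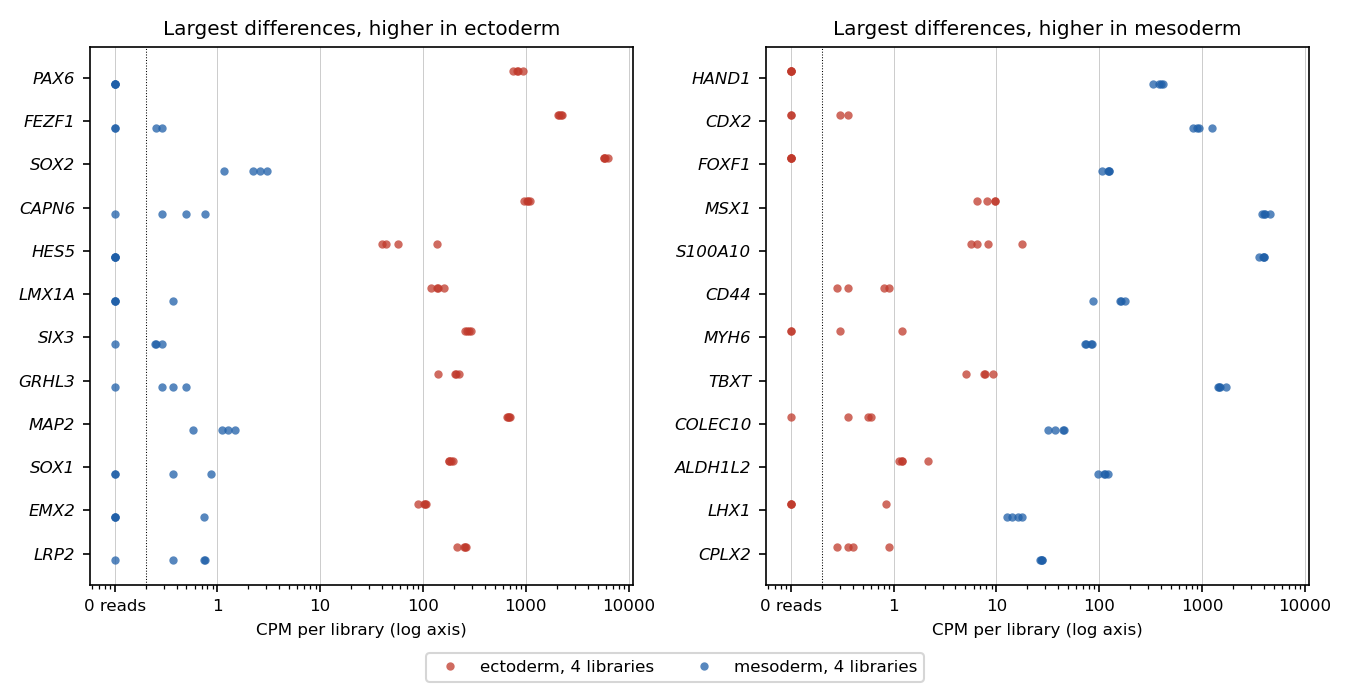
CPM in each of the 8 libraries on a log axis for the 12 largest differences in each direction, ectoderm in red and mesoderm in blue; points left of the dotted line are libraries with 0 reads. The groups are separate for all 24 genes, which were chosen for large differences, and for 79.8% of all tested genes. PAX6, HES5, HAND1 and FOXF1 have no reads in any library of the lower group.

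Of 26 neural ectoderm genes on the panel, 24 could be tested: 17 were higher in ectoderm, 6 higher in mesoderm and OLIG1 was not called, with a median log2 difference of 4.95 beside 0.09 over all tested genes. The share called was 95.8%, against 87.6% of all tested genes, of which 44.4% were higher in ectoderm and 43.2% higher in mesoderm. OTX2, which marks forebrain and midbrain, was at 379 to 422 CPM in ectoderm and 10.4 to 10.9 CPM in mesoderm. The orphan nuclear receptor NR2F2 was at 523 to 665 CPM against 2.27 to 3.19 CPM, and its relative NR2F1 at 19.9 to 23.0 CPM against at most 0.737 CPM (6.06 ± 0.37, and 7.22 without mesoderm replicate 4). ZIC1, ZIC2 and ZIC4, zinc finger factors of the dorsal neural plate, were higher in ectoderm by 4.26 ± 0.11, 2.75 ± 0.07 and 4.70 ± 0.26 on the log2 scale, and the radial glial lipid carrier FABP7 by 4.41 ± 0.10. The intermediate filament NES, often used as a neural stem cell marker, differed only by 1.01 ± 0.08 and kept 1879 to 2354 CPM in mesoderm.

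The 6 genes of the neural list that were higher in mesoderm included GBX2, a factor of the anterior hindbrain that was also high in hESC. It was at 58.0, 63.8, 47.9 and 59.6 CPM in ectoderm and at 686, 653, 559 and 660 CPM in mesoderm, a log2 difference of -3.47 ± 0.12 (adjusted p = 7.43e-17), with 757 ± 51.2 CPM in hESC. The groups were far apart, and mesoderm lay near the hESC level. The adhesion molecules NCAM1 and CDH2 (N-cadherin), which mesoderm also carries, differed by -2.27 ± 0.10 and -0.77 ± 0.07, with 427 to 482 CPM of NCAM1 and 3377 to 3647 CPM of CDH2 in mesoderm. The ventral spinal cord factors OLIG2 and NKX2-2 were low in both groups: OLIG2 was at 11.9 to 16.2 CPM in ectoderm and 26.0 to 34.1 CPM in mesoderm, and NKX2-2 at 2 reads in all in ectoderm and 3.71 to 8.84 CPM in mesoderm. OLIG1 had at most 1.42 CPM in any of the 8 libraries and was called only when mesoderm replicate 2 was left out (3.82, adjusted p = 0.0283).

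Of 17 genes of differentiated neurons on the panel, 10 could be tested and all were called, 5 in each direction, where all tested genes gave 87.6% called, 44.4% higher in ectoderm and 43.2% higher in mesoderm. The neurogenic factor NEUROG2 was at 15.8 to 24.9 CPM in ectoderm and at most 1.15 CPM in mesoderm, and the vesicular glutamate transporter SLC17A7 was at 26.8 to 36.1 CPM against 0.862 to 2.23 CPM; DCX, NRCAM and SST were also higher in ectoderm. GAD1, the enzyme that makes the transmitter GABA, was at 6.85, 3.91, 8.52 and 6.25 CPM in ectoderm and at 137, 127, 152 and 145 CPM in mesoderm, a log2 difference of -4.48 ± 0.20 (adjusted p = 7.42e-15). Neuronal tubulin TUBB3 was likewise lower in ectoderm, at 91.7 to 134 CPM against 915, 779, 418 and 795 CPM, with mesoderm replicate 3 the low one. The median log2 difference of the 10 tested genes was 1.04, toward ectoderm. The summed level of the 17 genes was 251 to 311 CPM in ectoderm and 629 to 1105 CPM in mesoderm, without overlap. TUBB3 alone made up most of this sum in each mesoderm library, so the sum does not describe the list as a whole. The LIM homeobox factor ISL1, described below with mesoderm, was also higher there. The calls of the last 2, RBFOX3 (-0.44 ± 0.18) and SYN1 (-0.77 ± 0.35), were each lost under several alternatives, SYN1 also without ectoderm replicate 4 (-0.74, adjusted p = 0.0837) or mesoderm replicate 3 (-0.59, adjusted p = 0.147), and RBFOX3 changed sign (0.01) under reference-gene scaling.

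All 7 neural crest regulators on the panel were called, 3 higher in ectoderm and 4 higher in mesoderm, near the split of all tested genes (44.4% and 43.2%), with a median of -2.31. PAX3, a paired-box factor of the neural plate border, was at 194 to 248 CPM in ectoderm against 8.33 to 10.3 CPM, NGFR (the p75 neurotrophin receptor) at 85.2 to 129 CPM against 2.70 to 4.08 CPM, and SOX10 at 17.7 to 25.6 CPM against 0.505 to 3.34 CPM. MSX1, a homeobox factor downstream of BMP that also marks mesoderm, was at 9.73, 8.12, 9.74 and 6.53 CPM in ectoderm and at 4063, 3804, 4612 and 3986 CPM in mesoderm (log2 difference -8.93 ± 0.13, adjusted p = 9.39e-23). SNAI2, which drives loss of epithelial contacts, was at 46.5 to 55.2 CPM against 395 to 460 CPM. These genes are not restricted to neural crest, and PAX3, NGFR and SOX10 parted from MSX1, SNAI2, ETS1 and FOXD3. FOXD3 had 1 ectoderm read in all and at most 1.47 CPM in mesoderm, and its call (-2.57 ± 0.90) was lost without mesoderm replicate 4 (-1.82, adjusted p = 0.123). That single read came from ectoderm replicate 4, without which ectoderm had none.

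Mesoderm regulators showed the reverse of the neural factors, at or near 0 reads in ectoderm and high in mesoderm. HAND1, a basic helix-loop-helix factor of lateral and extraembryonic mesoderm and of trophoblast (chromosome 5, 154474972 to 154478227, GRCh38), had no read in any ectoderm library and stood at 417, 398, 336 and 383 CPM in mesoderm. That is at least 379-fold higher in mesoderm (adjusted p = 3e-15, edgeR). CDX2, the caudal factor of posterior mesoderm, gut and trophoblast (chromosome 13, 27960918 to 27969315), was at 941, 898, 1256 and 818 CPM in mesoderm with 2 reads in all in ectoderm, a ratio of 5762 with an exact 95% interval of 1595 to 47581. FOXF1, a forkhead factor of splanchnic mesoderm, was at 124, 126, 106 and 122 CPM with no ectoderm read, at least 118-fold higher. For all 3 the mesoderm libraries lay together, and none of them had a read in hESC.

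TBXT, the defining factor of primitive streak and nascent mesoderm, was at 1428, 1468, 1700 and 1497 CPM in mesoderm and at 5.05, 7.52, 7.71 and 9.37 CPM in ectoderm (log2 difference -7.66 ± 0.14, adjusted p = 1.42e-21). It was thus still expressed in mesoderm on day 5. LHX1, a LIM homeobox factor of intermediate and lateral mesoderm, was at 12.8 to 17.8 CPM against 3 ectoderm reads in all, which came from replicate 4; without that library ectoderm had none. PDGFRA, a receptor of paraxial mesoderm, was low in both groups, at 10.6 to 14.4 CPM in mesoderm and 3.24 to 5.11 CPM in ectoderm. Over the list of 11 mesoderm genes on the panel, 9 were tested, 6 were higher in mesoderm and 2 higher in ectoderm, with a median of -5.70. The share called, 88.9%, was near the 87.6% of all tested genes, of which 43.2% were higher in mesoderm and 44.4% higher in ectoderm. HAND2 and NKX2-5, genes of the later heart field, had too few reads to test.

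The 2 listed mesoderm genes that were higher in ectoderm were receptor tyrosine kinases. KDR, the VEGF receptor of blood and endothelial precursors, was at 91.9, 80.9, 82.4 and 96.2 CPM in ectoderm and 20.4, 23.2, 12.3 and 21.1 CPM in mesoderm (log2 difference 2.17 ± 0.13, adjusted p = 2.1e-12), and hESC, at 221 CPM, lay above both. PECAM1, CDH5 and PTPRC, the other blood and endothelial markers on the panel, had too few reads to test. PDGFRB was at 24.4 to 39.0 CPM in ectoderm and 22.7 to 27.1 CPM in mesoderm, and its call (0.33 ± 0.15, adjusted p = 0.0454) was lost under most alternatives, among them without ectoderm replicate 4 (0.23, adjusted p = 0.220) and without mesoderm replicate 3 (0.33, adjusted p = 0.0550). EOMES, a T-box factor of streak and endoderm, had at most 3.71 CPM in any of the 8 libraries against 370 CPM in endoderm and was not called. It was called higher in mesoderm without ectoderm replicate 4 (-3.51, adjusted p = 0.0411, edgeR). The same held with the library total as covariate (-1.93, adjusted p = 0.036, edgeR).

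The extraembryonic list shares HAND1 and CDX2 with the mesoderm list, so their direction is not a separate result. HAND1, CDX2 and ISL1 are read in amnion and trophoblast as well as in mesoderm, and ISL1, a LIM homeobox factor, was at 4.17 to 9.65 CPM in mesoderm against 0 to 1.44 CPM in ectoderm (-3.12 ± 0.47). The fourth gene of that list, TP63, had too few reads to test. The summed level of the 4 genes was 1205 to 1602 CPM in mesoderm, 21.6 to 27.7 CPM in endoderm and at most 1.80 CPM in ectoderm. In mesoderm nearly all of this sum came from CDX2 and HAND1, so it repeats their values and does not describe the list as a whole.

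**Figure D3:**
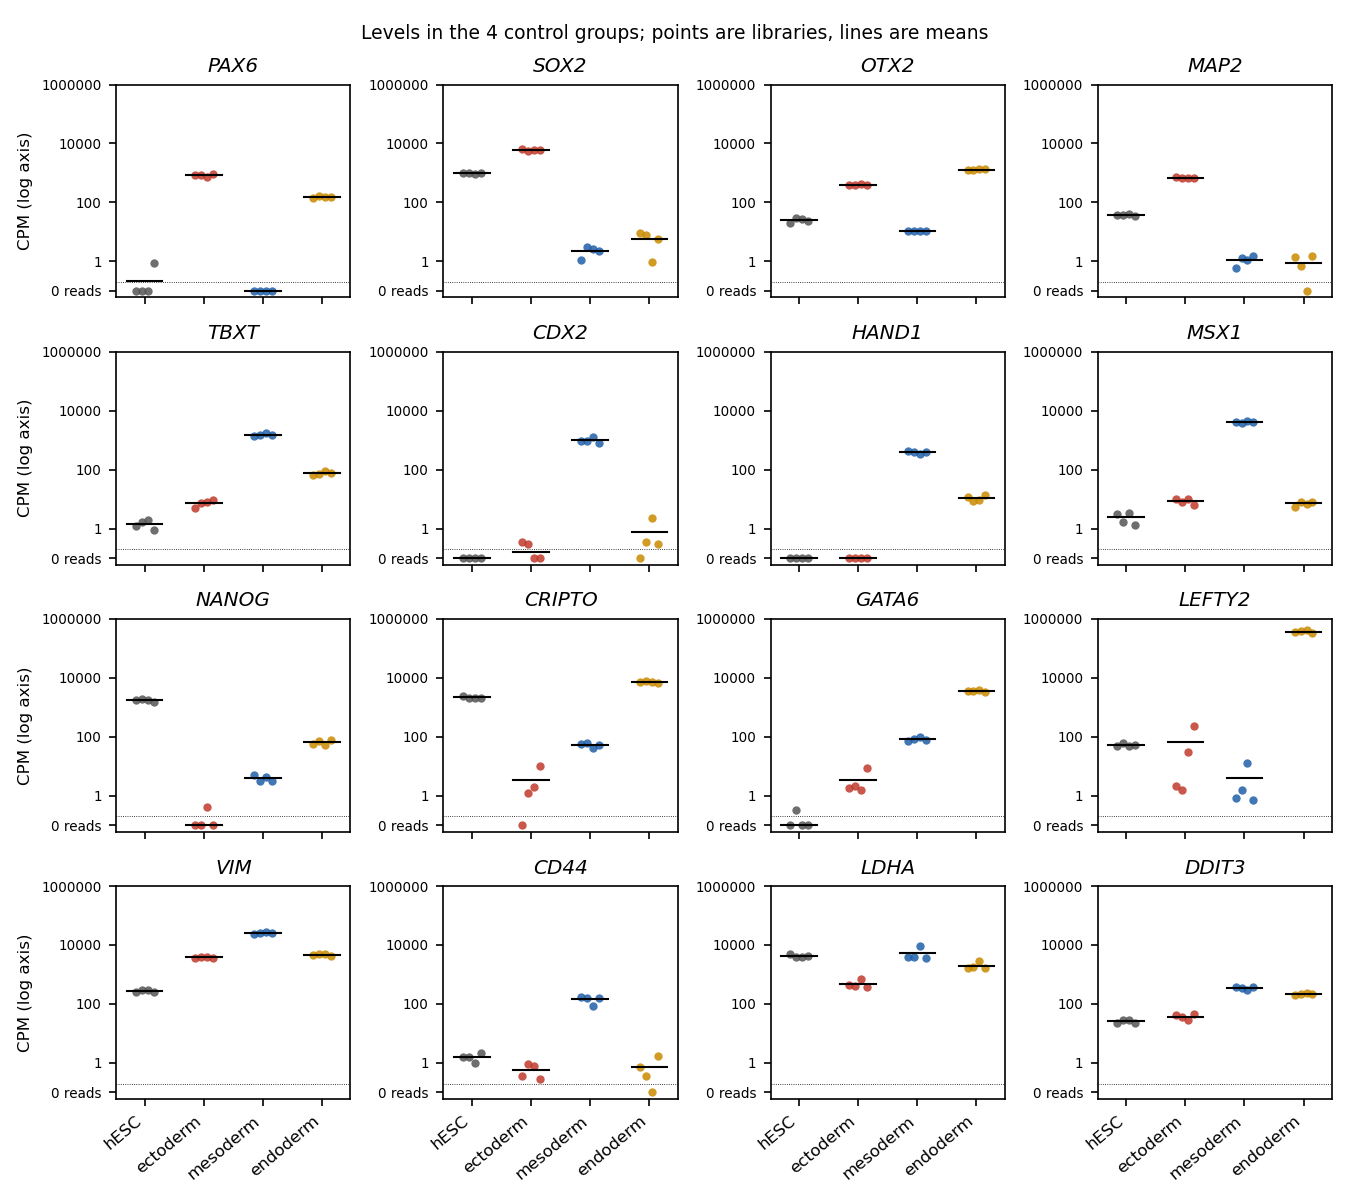
CPM of 16 genes in the 4 libraries of hESC, ectoderm, mesoderm and endoderm, on a log axis with 0 reads drawn at the bottom; points are libraries and lines are group means. SOX2 lies above its hESC level in ectoderm and far below it in mesoderm, CDX2, HAND1 and MSX1 are high in mesoderm alone of the 4 groups, and LEFTY2 spreads from 1.5 to 236 CPM among the ectoderm libraries.

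The 8 endoderm genes on the panel summed to 31.0 to 42.6 CPM in the ectoderm libraries, 106 to 128 CPM in the mesoderm libraries and 9030 to 9199 CPM in endoderm. Of 7 tested endoderm genes, 1 was higher in ectoderm, 3 higher in mesoderm and 3 were not called, that is 57.1% called against 87.6% of all tested genes. GATA6, a zinc finger factor of endoderm and cardiac mesoderm, was at 1.80, 2.10, 1.62 and 8.52 CPM in ectoderm and 73.0, 85.8, 97.3 and 77.1 CPM in mesoderm, far below the endoderm group mean of 3620 CPM. Its log2 difference of -4.44 ± 0.26 became -5.51 without ectoderm replicate 4. KLF5, a Krüppel-like factor, differed by -3.23 ± 0.30 and was at 13.4 to 25.7 CPM in mesoderm. FOXA1, a pioneer factor of endoderm, was the one higher in ectoderm, at 19.9 to 25.9 CPM against 1.11 to 3.93 CPM, while its relative FOXA2 had 1 read in all in ectoderm, in replicate 2, and 1.01 to 6.68 CPM in mesoderm. SOX17 had at most 3.12 CPM, in ectoderm replicate 4, and ALB at most 5.68 CPM in any of the 8 libraries. HHEX, a homeobox factor of anterior endoderm, was at 2.44 to 5.39 CPM in ectoderm and 3.34 to 8.05 CPM in mesoderm; it was not called (-0.51 ± 0.26, adjusted p = 0.0753), but was called higher in mesoderm under 7 of 22 alternatives, among them without ectoderm replicate 4 (-0.77, adjusted p = 0.0295) and without mesoderm replicate 3 (-0.68, adjusted p = 0.0159).

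LEFTY2 and LEFTY1 were uneven among the ectoderm libraries, highest in replicate 4 and next in replicate 3. LEFTY2, a secreted Nodal inhibitor that made up 368387 CPM of the endoderm group, was at 2.16, 1.5, 29.6 and 236 CPM in ectoderm replicates 1 to 4 and at 0.862, 1.51, 12.6 and 0.737 CPM in mesoderm. Its paralog LEFTY1 was at 0.721, 0.301, 3.25 and 27 CPM in ectoderm and at most 1.23 CPM in mesoderm. Both were called higher in ectoderm (4.36 ± 1.37 and 3.83 ± 1.32), with overlapping groups, and neither call held without ectoderm replicate 4 (1.54 with an adjusted p of 0.192, and 1.07 with an adjusted p of 0.179). LEFTY2 differed by 5.95 without mesoderm replicate 3, and LEFTY1 by 4.63 without mesoderm replicate 4. Without ectoderm replicates 3 and 4 and mesoderm replicate 3, a choice made after seeing the data, LEFTY1 differed by -0.04. GATA6, CRIPTO, CYP26A1 and NPPB were also highest among the ectoderm libraries in replicate 4, and NPPB, which encodes a natriuretic peptide, differed by 1.62 ± 0.55, or 0.70 without it. What part endoderm RNA or reads had in these values was not tested.

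The 13 pluripotency genes on the panel were all tested, and 4 were higher in ectoderm, 8 higher in mesoderm and POU5F1 was not called. That is 92.3% called, near the 87.6% of all tested genes, of which 44.4% were higher in ectoderm and 43.2% higher in mesoderm. The median was -0.45, or -0.34 with GDF3, which had no ectoderm read, at its smallest fold. NANOG was nearly gone from both lineages: hESC averaged 1731 CPM, ectoderm had 1 read in its 4 libraries, in replicate 3, and mesoderm held 4.89, 3.28, 4.45 and 3.19 CPM. GDF3, a TGF-beta family ligand of pluripotent cells, was at 257 CPM in hESC, 0.491 to 1.48 CPM in mesoderm and without a read in ectoderm. CRIPTO, the Nodal coreceptor formerly named TDGF1, was at 0, 1.20, 2.03 and 10.5 CPM in ectoderm and at 54.9, 63.8, 40.8 and 52.1 CPM in mesoderm, against 2156 CPM in hESC (ectoderm minus mesoderm -3.81 ± 0.42, and -5.67 without ectoderm replicate 4). The neuropeptide GAL was at 4.06 to 7.95 CPM in ectoderm and 240 to 259 CPM in mesoderm (-5.39 ± 0.14), and the zinc finger factor ZFP42 at 67.6 to 76.1 against 133 to 171 CPM. POU5F1 is read by a single probe that gave only 7.51 CPM in hESC, which leaves little room to measure a loss.

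LIN28A, which blocks let-7 maturation, was at 5323 to 6559 CPM in ectoderm and 2194 to 2323 CPM in mesoderm (1.37 ± 0.07), and SALL4 and DPPA4 were higher in ectoderm by 0.54 ± 0.09 and 0.51 ± 0.08. DNA methyltransferase DNMT3B, at 3096 CPM in hESC, was at 295 to 361 CPM in ectoderm and 394 to 462 CPM in mesoderm (-0.34 ± 0.08, but 0.11 under reference-gene scaling). LIN28B (-0.22 ± 0.08; 0.22 under reference-gene scaling), DPPA2 (-0.45 ± 0.13) and L1TD1 (0.28 ± 0.07) were called on differences under 1.5-fold, and each call was lost under at least 2 of the alternatives.

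**Figure D4:**
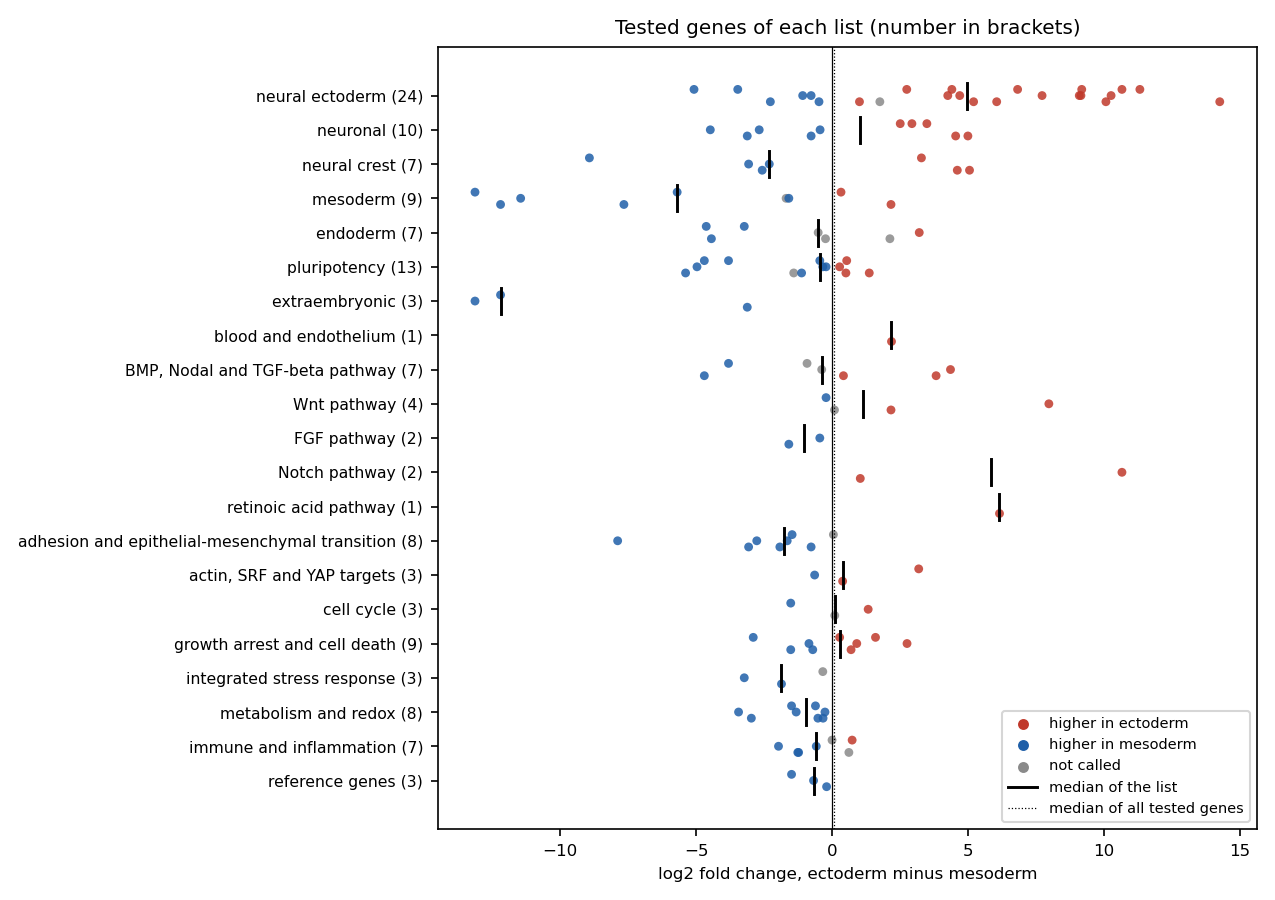
Log2 fold change of ectoderm minus mesoderm for every tested gene of 21 lists, with the number tested in brackets; red, blue and grey mark genes higher in ectoderm, higher in mesoderm and not called, and black bars are list medians. The neural ectoderm list has its median at 4.95 and the mesoderm list at -5.70, while the dotted line of all tested genes lies at 0.09.

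Genes of the BMP and Nodal pathways, on which the inhibitors act, went both ways. ID1, a direct BMP target, was at 37.8, 34.6, 50.3 and 38.3 CPM in ectoderm, where the BMP receptor inhibitor was present, and at 27.3, 26.2, 40.8 and 26.3 CPM in mesoderm; the groups overlapped and the call (0.42 ± 0.16, adjusted p = 0.0173) was lost under 8 of 22 alternatives. Against 41.4 CPM in hESC, ID1 was not called in ectoderm (-0.05 ± 0.16, adjusted p = 0.772) and was called lower in mesoderm (-0.47 ± 0.16, adjusted p = 0.0102). The BMP signal transducer SMAD1 (-0.38 ± 0.22), which was called higher in mesoderm under 9 of the 22 alternatives, and NODAL itself, with at most 0.568 CPM in any of the 8 libraries, were not called, although NODAL was without ectoderm replicate 4 (-3.23, adjusted p = 0.0319). Of the 7 genes of this list, 71.4% were called, against 87.6% of all tested genes, of which 44.4% were higher in ectoderm and 43.2% higher in mesoderm. The 3 higher in ectoderm were ID1, LEFTY1 and LEFTY2, and the 2 higher in mesoderm were GDF3 and CRIPTO. As given above, neither LEFTY call held without ectoderm replicate 4. CYP26A1, which degrades retinoic acid, was at 12.6, 12.3, 10.6 and 34.1 CPM in ectoderm with 3 reads in all in mesoderm, a ratio of 87.0 with an exact 95% interval of 29.4 to 425. Its fitted log2 difference of 6.15 ± 0.69 became 5.49 without ectoderm replicate 4 and 7.01 without mesoderm replicate 1.

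Wnt receptors differed from each other. FZD5, a frizzled receptor of the anterior neural plate and eye field, was at 2378, 2523, 2438 and 2391 CPM in ectoderm and 10.6, 8.07, 10.8 and 9.33 CPM in mesoderm (7.98 ± 0.10, adjusted p = 5.36e-24). FZD3 was higher in ectoderm by 2.51 ± 0.13, while FZD7 was at 696 to 775 CPM in ectoderm and 806 to 944 CPM in mesoderm (-0.22 ± 0.06; 0.22 under reference-gene scaling). The secreted Wnt inhibitor SFRP1 was at 3625 to 4139 CPM against 808 to 878 CPM (2.17 ± 0.06), and MYC was not called. The Notch ligand DLL1 was at 1022 to 1259 CPM in ectoderm and 566 to 582 CPM in mesoderm (1.04 ± 0.08). Feedback inhibitors of FGF signalling were higher in mesoderm: SPRY2 by a log2 difference of -1.59 ± 0.07, and DUSP6 of -0.45 ± 0.08, which reference-gene scaling reduced to -0.01.

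Of 8 tested genes on the adhesion and mesenchymal list, 7 were higher in mesoderm and none in ectoderm, with a median of -1.78. Over all tested genes these shares were 43.2% and 44.4%. The list does not hold every adhesion gene of the panel. NCAM1, kept with neural ectoderm, was higher in mesoderm (-2.27), and NRCAM, kept with the neuronal genes, was higher in ectoderm (2.94). EPCAM, the epithelial adhesion molecule, was not called at 151 to 228 CPM in ectoderm and 171 to 199 CPM in mesoderm. VIM, the intermediate filament of mesenchymal cells and neural progenitors, was at 3700, 3910, 3968 and 3497 CPM in ectoderm and 24388, 25839, 27677 and 24736 CPM in mesoderm (-2.77 ± 0.07, adjusted p = 6.47e-19). The hyaluronan receptor CD44 was at 178, 159, 87.2 and 164 CPM in mesoderm, with replicate 3 low, and below 1 CPM in all ectoderm libraries (-7.89 ± 0.35). S100A10, a binding partner of annexin A2, was at 3619 to 4010 CPM in mesoderm and 5.71 to 17.9 CPM in ectoderm. The log2 difference was -8.61 ± 0.20, and -9.22 without ectoderm replicate 4, the highest. The S100A10 level of hESC, 1733 CPM, was called higher than ectoderm and lower than mesoderm. CD24, CD9 and KRT18 differed by -1.47 ± 0.08, -1.92 ± 0.12 and -1.65 ± 0.18. On the actin list, the tropomyosin gene TPM1 was higher in ectoderm (5800 to 7760 against 625 to 824 CPM), and TAGLN was lower (-0.64 ± 0.09).

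The remaining genes among the 12 largest mesoderm differences came from several functions. MYH6, the atrial and embryonic cardiac myosin heavy chain, was at 72.4 to 84.5 CPM in mesoderm and 0 to 1.22 CPM in ectoderm (-7.72 ± 0.36, and -9.10 without ectoderm replicate 3). The mitochondrial folate enzyme ALDH1L2 was at 97.1, 114, 110 and 123 CPM in mesoderm and 2.16, 1.20, 1.22 and 1.14 CPM in ectoderm (-6.26 ± 0.21, adjusted p = 7.03e-17), the collectin COLEC10 at 31.6 to 45.7 CPM against at most 0.602 CPM, and the synaptic protein CPLX2 at 26.7 to 27.8 CPM against at most 0.902 CPM. None of these 4 had overlapping groups, but they were chosen for large differences, and 79.8% of all tested genes had no overlap either.

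On the list of glycolytic and redox genes, which does not hold every such gene of the panel, all tested members stood lower in ectoderm. The 8 tested members of that list were called higher in mesoderm, against 43.2% of all tested genes, with a median of -0.97, although the smallest of these differences, FTH1 (-0.26 ± 0.12) and TXNRD1 (-0.33 ± 0.06), changed sign to 0.19 and 0.13 under reference-gene scaling, which itself rests on PGK1, and the calls of HMOX1 and NQO1 were lost there. FTH1 also lost its call without mesoderm replicate 3 (-0.16, adjusted p = 0.167). Lactate dehydrogenase LDHA was at 440, 391, 695 and 373 CPM in ectoderm and 4024, 3968, 9079 and 3515 CPM in mesoderm (-3.44 ± 0.34, adjusted p = 4.05e-07), with replicate 3 the highest in both groups. The aldolase ALDOC was at 140 to 189 CPM against 1298 to 1407 CPM (-2.97 ± 0.09), close to its hESC mean of 1505 CPM in mesoderm, and the glycolytic kinase PGK1 at 935 to 1359 against 2469 to 4225 CPM (-1.49 ± 0.18). GCLM, a subunit of the enzyme that starts glutathione synthesis, differed by -1.32 ± 0.08. GAPDH, a common reference gene, was at 28779 to 32707 CPM in ectoderm and 45955 to 51921 CPM in mesoderm (-0.68 ± 0.07).

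On the integrated stress response list 66.7% of 3 tested genes were called, against 87.6% of all tested genes. Of the 3 genes of this response, 2 were higher in mesoderm, against 43.2% of all tested genes, and 1 was not called. ATF4, its central transcription factor, was at 2320, 2183, 2018 and 2733 CPM in ectoderm and 8426, 8217, 8238 and 8692 CPM in mesoderm (-1.86 ± 0.08, adjusted p = 2.1e-15). Its target DDIT3 (CHOP) was at 41.1, 36.1, 27.6 and 44.3 CPM against 382, 346, 298 and 380 CPM (-3.23 ± 0.13, adjusted p = 9.34e-16). Relative to 5575 CPM in hESC, ATF4 was called lower in ectoderm (-1.27 ± 0.08) and higher in mesoderm (0.59 ± 0.07). The endoplasmic reticulum chaperone HSPA5 was at 280 to 590 CPM and 305 to 864 CPM and was not called, replicate 3 being highest in both groups.

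Of 9 tested growth arrest and death genes, 5 were higher in ectoderm and 4 in mesoderm, near the split of all tested genes (44.4% and 43.2%), with a median of 0.28. BBC3 (PUMA) was at 187 to 282 CPM in ectoderm and 62.0 to 89.6 CPM in mesoderm (1.60 ± 0.12), and the TNF ligand TNFSF9 at 64.1 to 70.4 against 7.61 to 13.1 CPM (2.76 ± 0.17). CDKN1A (p21) was at 285 to 326 CPM in ectoderm and 785 to 955 CPM in mesoderm (-1.52 ± 0.13), and GADD45G at 1.20 to 2.52 against 12.8 to 14.9 CPM. Topoisomerase TOP2A, made in dividing cells, was higher in ectoderm at 5049 to 5185 CPM against 1870 to 2103 CPM (1.33 ± 0.08), whereas the proliferation marker MKI67 was not called, at 641 to 713 against 550 to 719 CPM.

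Of 7 immune genes, 71.4% were called against 87.6% of all tested genes: 4 were higher in mesoderm and HLA-B alone was higher in ectoderm. Another of the 7 had no read in any of the 8 libraries compared, so it could not be called. IFITM1, an interferon-induced membrane protein that pluripotent cells express, was at 5902 to 7780 CPM in ectoderm and 25471 to 26815 CPM in mesoderm (-1.97 ± 0.08), near 27060 CPM in hESC. CD74, the invariant chain, was at 72.4 to 90.1 against 179 to 205 CPM (-1.26 ± 0.11). HLA-B was at 7.82 to 10.6 CPM in ectoderm and 3.93 to 8.33 CPM in mesoderm, with overlapping groups.

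Genes that were not called include some of the most strongly read on the panel. Among the 48 uncalled genes, CNBP, FSTL1, CENPF, HSPA4, BTG2 and MKI67 had the highest mean levels, with log2 differences between -0.12 and 0.12 and overlapping libraries. BTG2, an antiproliferative gene, shared its level between the lineages (577 to 705 against 645 to 729 CPM) but was at 29.8 CPM in hESC; it was called higher in mesoderm without ectoderm replicate 4 (-0.23, adjusted p = 0.0275) or without mesoderm replicate 3 (-0.18, adjusted p = 0.0255). A result of this size depends on the scaling: relative to TMM, the median difference moved by 0.13 with median-ratio factors, -0.21 with upper-quartile factors, -0.12 with library totals alone and 0.45 with the reference genes. Under the 4 scalings together 97 of the tested genes changed their call or their sign, and 4 of these were among the 234 with a difference of at least 2-fold.

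The hESC level placed the differences. Of the 132 genes called at least 2-fold higher in ectoderm, the hESC mean lay below both lineages for 51 (38.6%), between them for 67 (50.8%) and above both for 14 (10.6%). Of the 102 genes at least 2-fold higher in mesoderm, it lay below both for 26 (25.5%), between them for 38 (37.3%) and above both for 38 (37.3%). NANOG, CRIPTO, GAL, GBX2 and IFITM1 belonged to this last set, in which the higher mesoderm level was nearer to that of undifferentiated cells. The same 4 hESC libraries stand behind all these positions, which were read from group means without a test.

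The probes of a gene mostly had the same sign. Fitted probe by probe, 724 of 903 tested probes were called (80.2%). In 292 of 322 genes with 2 or more tested probes all probes had the same sign, and in 224 all were called the same way; the median spread of the log2 difference between probes of a gene was 0.32. The 2 PAX6 probes averaged 22.8 and 822 CPM in ectoderm and neither had a mesoderm read, and both HAND1 probes and all 3 CDX2 probes were called higher in mesoderm. Opposite calls were found for RPL13A, RPS19 and SRSF2. In RPS19, a ribosomal protein gene that alone stood at 189127 to 215364 CPM in ectoderm and 93923 to 109481 CPM in mesoderm, 2 probes gave 1.17 ± 0.08 and 1.03 ± 0.08, and the third, at 2.07 and 8.10 CPM, gave -1.95 ± 0.34. For the splicing factor SRSF2 the gene total differed by -0.95 ± 0.07, while its weakest probe gave 0.40 ± 0.12; for RPL13A the total differed by 0.58 ± 0.08 and its 2 weaker probes gave -0.46 ± 0.13 and -0.38 ± 0.12.

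**Figure D5:**
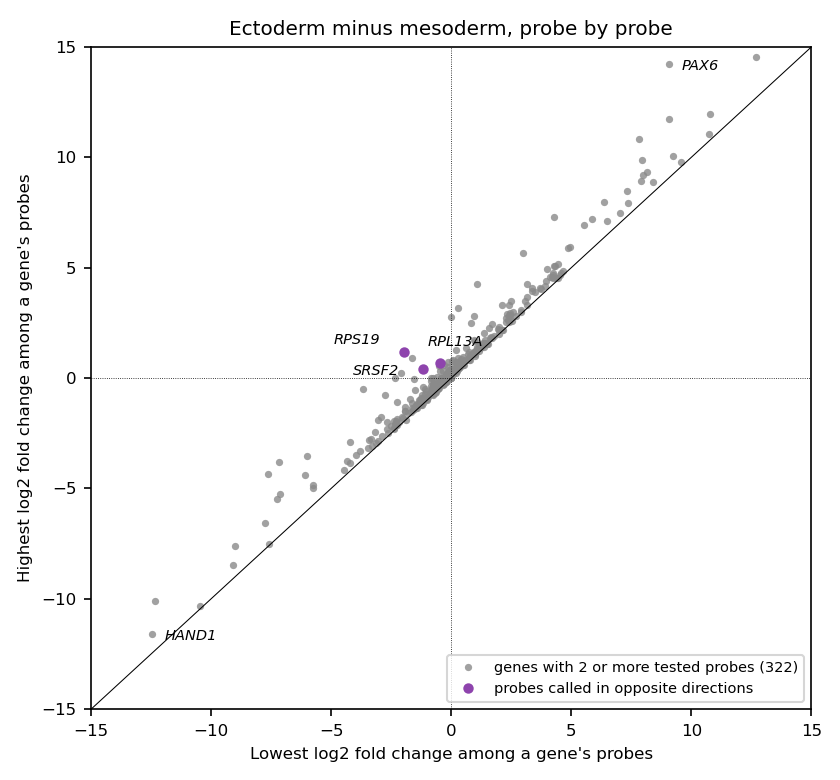
For each of the 322 genes with 2 or more tested probes, the lowest log2 fold change among its probes is on the x axis and the highest on the y axis, and the diagonal marks equal values. Most genes lie along the diagonal; the 3 purple genes, RPL13A, RPS19 and SRSF2, had probes called in opposite directions.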

How the data were processed

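Per the labels' protocols, poly-A RNA from lysates was bound in TurboCapture plates, hybridized with probes that were then ligated, and amplified and sequenced, and the series' design text names a custom aligner; its version and settings are not given in the sources used here. The values the authors deposited are raw read counts per probe, without normalization. The submitters' processing notes name hg38 and DESeq2, with no role stated. No molecular identifiers are mentioned, so intervals cover counting error only. The 48 sample tables equalled the merged table, whose 16 further columns matched no sample and were not used. Probe counts were summed to 452 genes (442 symbols matched the RefSeq table of GRCh38.p14 directly, 10 by transcript), from which gene positions were taken; probe sequences were not used here.

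The 16 control libraries were fitted together with edgeR 4.0.16 in R 4.3.3 (filterByExpr by group, TMM, robust quasi-likelihood test, two-sided, contrast ectoderm minus mesoderm, Benjamini-Hochberg over all 387 tested genes, threshold 0.05). SE is the log2 fold change divided by the square root of F. The fit was tested on simulated data. CPM used TMM library sizes. Where the lower group had no read, the fold is a bound against 3 reads per library; with 1 to 3 reads in all it is the ratio of pooled CPM with an exact 95% interval.

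Members and lists were chosen with earlier results of these data known. Named were the 12 largest called changes each way among genes whose higher group averaged 50 reads or more, all tested genes of the neural ectoderm, mesoderm, endoderm, pluripotency and extraembryonic lists, the 2 largest calls each way of every other list, genes with opposite probe calls and the 6 highest uncalled genes. These 106 genes were joined by 57 chosen after their values were seen, such as VIM, TUBB3, ID1, FZD3, ACTB and GCLM. In all, 22 alternatives were run, among them other scalings, filters and fits, DESeq2 1.42.0, a replicate block and each library left out; 2 of them, which leave out several libraries, were added after seeing the data. A few panel genes are not reported here by name.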

Additional observations from a re-analysis of the deposited data

Results flagged for a closer look

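Within a group of 4 libraries, one library was set far from the other 3 (a gap beyond Dixon's 95% limit) in 22 of 267 combinations of a gene or read total and a group, or 8.24%, where chance gives about 5%. Mesoderm replicate 3 accounted for 13 of them. It was high for CD9 (1050 CPM, others 744 to 764), FTH1 (17478, others 12837 to 13182), HSP90B1 (6228, others 4889 to 5046), HSPA4 (1329, others 1026 to 1058), HSPA8 (14250, others 13504 to 13623), ID1 (40.8, others 26.2 to 27.3), KRT18 (1960, others 1211 to 1279), LDHA (9079, others 3515 to 4024) and RPS21 (180, others 47.9 to 53.7). It was low for CD44 (87.2, others 159 to 178), MT1F (37.1, others 40.8 to 41.2), SHMT2 (3227, others 3478 to 3514) and TUBB2B (30260, others 37952 to 38772).

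Ectoderm replicate 4 was high for CYP26A1 (34.1 CPM, others 10.6 to 12.6), GATA6 (8.52, others 1.62 to 2.10) and NPPB (31.5, others 7.57 to 8.72). Ectoderm replicate 3 was low for DLL1 (1022, others 1224 to 1259) and SHMT2 (619, others 781 to 803) and high for SOX10 (25.6, others 17.7 to 18.5). Single flags were the L1TD1 level of ectoderm replicate 1 (297, others 268 to 272), HLA-B of ectoderm replicate 2 (7.82, others 10.2 to 10.6) and FABP7 of mesoderm replicate 1 (36.2, others 31.3 to 31.9).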

How the results depend on the processing

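The main counts were 339 genes called, 172 higher in ectoderm, 167 higher in mesoderm and 234 with a 2-fold difference, and 3 genes with probes called in opposite directions. Requiring 10 reads in every library left 247 genes, of which 220 were called, 114 higher in ectoderm and 106 higher in mesoderm, with 121 at a 2-fold difference; fewer genes tested account for part of this by construction. Requiring a 2-fold difference in both probes left 1 gene, RPS19, with opposite calls. The other alternatives kept the 4 gene counts within 1.5 times. Leaving out each replicate in turn gave 329 to 339 genes called, 164 to 172 higher in ectoderm, 161 to 169 higher in mesoderm and 229 to 236 with a 2-fold difference. No called gene changed to a call in the opposite direction, except 5 genes under reference-gene scaling.

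Under that scaling the log2 differences of ACTB (0.25), BTG2 (0.33), DNMT3B (0.11), FTH1 (0.19), FZD7 (0.22), HSP90AB1 (0.02), HSPA4 (0.34), LIN28B (0.22), RBFOX3 (0.01) and TXNRD1 (0.13) reversed, and so did LEFTY1 (-0.04) without ectoderm replicates 3 and 4 and mesoderm replicate 3; the cause was not tested. ACTB was called higher in mesoderm in the main fit (-0.20, adjusted p = 0.0352, edgeR). It lost this call without mesoderm replicate 3 (-0.18, adjusted p = 0.0701, edgeR) and under several other alternatives. A fit of all 48 libraries called 277 genes, 267 of them also called in the main fit. Of 163 named genes, 45 changed their call or sign under at least 1 alternative. Replicate numbers were not taken as pairs, since not every same-numbered pair correlated at over 0.1: deviations of same-numbered ectoderm and mesoderm libraries correlated at 0.147, 0.224, 0.494 and 0.0096, and not every library correlated best with its own number. With the replicate number as a block, 341 genes were called, 174 higher in ectoderm and 167 higher in mesoderm, and 235 with a 2-fold difference; SMAD1 gained a call (-0.38, adjusted p = 0.0236) and SYN1 lost its call (-0.77, adjusted p = 0.0545). DESeq2 gave LEFTY1 and LEFTY2 no adjusted p. At these depths 3 reads correspond to 0.737 to 1.22 CPM, so differences between lower levels rest on very few reads and are weakly measured. A call could still arise there, as for NODAL without ectoderm replicate 4. Of the 452 genes, 43 had at most 3 reads in each of the 8 libraries.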

Other observations

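The gene groups below were picked after their values were seen, so their counts support nothing and no test is given. The 5 genes of serine, one-carbon and amino acid supply picked in this way were higher in mesoderm, as were 43.2% of all tested genes. The amino acid transporter SLC7A5 was at 48.3, 46.3, 39.0 and 52.8 CPM in ectoderm and 896, 955, 801 and 966 CPM in mesoderm (log2 difference -4.27 ± 0.11), the serine hydroxymethyltransferase SHMT2 differed by -2.20 ± 0.08 and PSAT1, an enzyme of serine synthesis, by -1.24 ± 0.08, beside ALDH1L2 described above. Of 8 heat shock genes, 6 were higher in mesoderm, the largest difference being HSPA8 at 4860 to 5098 CPM against 13504 to 14250 CPM (-1.46 ± 0.08), and HSPA4 and HSPA5 were not called; HSP90AB1 (-0.43 ± 0.10) changed sign under reference-gene scaling. Of 5 ribosomal protein genes, RPS19, RPL13A, RPL15 and RPL5 were higher in ectoderm by 1.01 ± 0.08, 0.58 ± 0.08, 0.50 ± 0.06 and 0.45 ± 0.08, and RPS21 was not called (-0.67 ± 0.50, and -0.01 without mesoderm replicate 3).

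Related genes also parted. Of 4 metallothionein genes, which encode metal-binding proteins, MT1F (120 to 144 CPM in ectoderm, 37.1 to 41.2 CPM in mesoderm) and MT2A (58.0 to 69.3 against 11.3 to 14.4 CPM) were higher in ectoderm, and MT1X (21.9 to 41.2 against 141 to 176 CPM) and MT1G (0.301 to 1.42 against 6.56 to 10.6 CPM) were higher in mesoderm, with hESC means of 276 to 1205 CPM above all of them. These genes are close in sequence, and how the counting divides reads between them was not tested. Muscle genes differed in direction too: the cardiac myosin MYH6 was higher in mesoderm, while cardiac troponin TNNT2 was at 11.9, 15, 14.2 and 19.3 CPM in ectoderm with no mesoderm read (at least 17.4-fold higher), and the slow skeletal troponin TNNT1 was at 1945 to 2432 against 487 to 524 CPM (2.08 ± 0.09). SMOC1, a secreted protein of the eye, was at 1669 to 1802 CPM in ectoderm and 3.16 to 7.05 CPM in mesoderm, and SHISA2, an inhibitor of Wnt and FGF receptors, at 453 to 597 against 0.862 to 2.23 CPM. The bicarbonate transporter SLC4A4 had no ectoderm read and 5.55 to 7.76 CPM in mesoderm, at least 6.72-fold higher.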
